A study of Mus musculus with 6 samples.

Results

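The map described here covered the 2 histone marks of untreated mouse colonic organoids, H3K4me3 and H3K27me3, each profiled by ChIP-seq in 1 of the 6 libraries of the study. Both libraries were chosen by their labels, and only the 19 autosomes were used. The organoids were epithelial cultures from the colon of C57BL/6 mice, grown without TNFα (wt). The other condition was the same kind of organoid that received 40 ng/ml TNFα over 3 weeks (called wt+TNFα), and each condition had 1 input, 1 H3K4me3 and 1 H3K27me3 library. The labels name a nominal sequencing depth of 40000000 reads for H3K4me3 and input and 60000000 for H3K27me3. The cultures were grown from isolated crypts in a medium with conditioned medium from cells that secrete Wnt3a, R-spondin and noggin, together with inhibitors of TGF-β receptors, p38 and ROCK, a medium that favours crypt-like epithelium. Because each mark had 1 library, no value below has a replicate error and no test between samples was possible.

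H3K4me3 and H3K27me3 are trimethylated forms of lysines in the tail of histone H3. H3K4me3 is placed by the COMPASS and Trithorax methyltransferases and marks the starts of genes that are active or ready to be transcribed. H3K27me3 is placed by the Ezh1 and Ezh2 subunits of Polycomb repressive complex 2, spreads over domains and marks genes held silent, among them the regulators of other lineages. Promoters that hold both marks are known from stem cells, where they belong mostly to developmental genes with CpG islands. In a population of cells, both marks on 1 nucleosome and marks carried by different cells or alleles cannot be told apart.

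Every gene of the GENCODE annotation of GRCm38 was placed in 1 of 4 states. A promoter was the stretch from 1000 bp upstream to 1000 bp downstream of each annotated transcript start, a gene had a mark if a peak reached at least 1 bp into any of its promoters, and genes were counted by symbol. Of the 51121 autosomal genes, with 125952 distinct starts, 11772 (23.0%) had H3K4me3 only, 6411 (12.5%) H3K27me3 only, 1310 (2.56%) both and 31628 (61.9%) neither. Among the 20780 protein-coding genes the numbers were 9637 (46.4%), 3515 (16.9%), 1123 (5.40%) and 6505 (31.3%). These 4 percentages of protein-coding genes are the background against which each gene list below is read.

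The promoters differed in sequence as well as in marks, and 2 per state are shown here to make the difference in CpG content visible. CpG content is given as the observed number of CG dinucleotides over the number that the C and G content predicts, in the 1000 bp on each side of the outermost start of a gene. The genes are those among the named ones whose value lay nearest to the median of their state, which was 0.63 for H3K4me3 only, 0.42 for H3K27me3 only, 0.63 for both and 0.17 for neither over protein-coding genes. Each line gives the 300 bases just upstream of the outermost start on the strand of the gene, read from the GRCm38 genome, 5′ to 3′, with every CG dinucleotide in capitals.
H1f0, a linker histone, H3K4me3 only, chr15:79028150-79028449, plus strand, 42 CG: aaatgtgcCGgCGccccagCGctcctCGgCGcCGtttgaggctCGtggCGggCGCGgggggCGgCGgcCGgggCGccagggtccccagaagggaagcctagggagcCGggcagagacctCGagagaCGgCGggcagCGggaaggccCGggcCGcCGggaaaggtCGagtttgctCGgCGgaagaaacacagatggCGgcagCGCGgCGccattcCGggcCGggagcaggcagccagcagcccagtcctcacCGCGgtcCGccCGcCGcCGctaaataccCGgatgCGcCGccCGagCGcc
Eif3f, a subunit of translation initiation factor eIF3, H3K4me3 only, chr7:108934117-108934416, plus strand, 10 CG: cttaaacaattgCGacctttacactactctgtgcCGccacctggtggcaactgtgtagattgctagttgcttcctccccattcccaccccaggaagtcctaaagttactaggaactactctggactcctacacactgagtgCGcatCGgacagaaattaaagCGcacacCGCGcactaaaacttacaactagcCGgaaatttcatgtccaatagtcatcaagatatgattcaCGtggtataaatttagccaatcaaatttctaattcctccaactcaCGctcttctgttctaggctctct
Dclk1, a kinase that marks tuft cells, H3K27me3 only, chr3:55242064-55242363, plus strand, 4 CG: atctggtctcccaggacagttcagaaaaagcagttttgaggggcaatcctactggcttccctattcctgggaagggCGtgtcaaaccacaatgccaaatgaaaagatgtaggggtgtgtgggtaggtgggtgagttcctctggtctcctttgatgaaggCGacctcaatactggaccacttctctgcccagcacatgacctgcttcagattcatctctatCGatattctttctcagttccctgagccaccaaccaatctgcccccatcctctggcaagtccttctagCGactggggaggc
Syt1, a synaptic vesicle calcium sensor, H3K27me3 only, chr10:109010983-109011282, minus strand, 8 CG: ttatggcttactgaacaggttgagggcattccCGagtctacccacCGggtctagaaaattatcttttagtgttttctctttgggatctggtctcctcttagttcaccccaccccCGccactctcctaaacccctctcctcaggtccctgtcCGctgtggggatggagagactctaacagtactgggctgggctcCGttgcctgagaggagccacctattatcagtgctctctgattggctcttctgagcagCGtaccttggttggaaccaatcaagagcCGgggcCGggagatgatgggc
Ptch1, the Hedgehog receptor, both marks, chr13:63573599-63573898, minus strand, 17 CG: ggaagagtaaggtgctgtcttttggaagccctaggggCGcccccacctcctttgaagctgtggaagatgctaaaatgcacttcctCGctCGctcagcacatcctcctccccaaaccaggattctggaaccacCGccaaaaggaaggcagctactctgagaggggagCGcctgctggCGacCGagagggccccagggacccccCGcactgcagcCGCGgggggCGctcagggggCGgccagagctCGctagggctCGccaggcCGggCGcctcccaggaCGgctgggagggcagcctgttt
Ropn1l, a sperm flagellum protein, both marks, chr15:31453738-31454037, minus strand, 14 CG: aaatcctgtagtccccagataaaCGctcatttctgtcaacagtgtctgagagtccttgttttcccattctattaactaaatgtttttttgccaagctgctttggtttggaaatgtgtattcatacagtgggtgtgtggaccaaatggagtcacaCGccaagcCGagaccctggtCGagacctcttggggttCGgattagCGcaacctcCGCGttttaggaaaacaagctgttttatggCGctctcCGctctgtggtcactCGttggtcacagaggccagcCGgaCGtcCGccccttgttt
Olfr1000, an olfactory receptor, neither mark, chr2:85611904-85612203, minus strand, 1 CG: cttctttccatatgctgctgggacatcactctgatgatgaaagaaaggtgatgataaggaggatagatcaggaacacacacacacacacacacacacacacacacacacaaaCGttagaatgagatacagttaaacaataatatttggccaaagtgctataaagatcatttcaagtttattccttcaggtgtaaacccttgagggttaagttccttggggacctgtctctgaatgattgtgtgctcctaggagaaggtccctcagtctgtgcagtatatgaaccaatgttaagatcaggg
Lum, the matrix proteoglycan lumican, neither mark, chr10:97564828-97565127, plus strand, 0 CG: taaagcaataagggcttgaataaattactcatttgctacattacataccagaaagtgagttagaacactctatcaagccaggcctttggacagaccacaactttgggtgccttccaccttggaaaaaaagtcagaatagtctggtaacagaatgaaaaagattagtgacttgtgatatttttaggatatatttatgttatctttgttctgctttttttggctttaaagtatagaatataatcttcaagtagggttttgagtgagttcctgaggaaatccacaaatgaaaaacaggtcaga
At Ptch1 the printed bases lay under an H3K27me3 peak. At Ropn1l only the printed bases nearest to the start lay under an H3K4me3 peak. In both genes the peak of the other mark lay elsewhere in the promoter, within 1000 bp of the start. Between genes of 1 state the printed stretches still differed widely, as H1f0 and Eif3f have the same CpG value over the longer window and 42 against 10 CG in these 300 bases.

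The peak lists of the marks had different shapes. There were 11233 autosomal H3K4me3 peaks, whose median width was 1415 bp, which covered 17.8 Mb (0.724% of the autosomes) and had a median fold enrichment over the local background of 25.1. The 30347 H3K27me3 peaks, whose median width was 1778 bp, covered 101 Mb (4.12%) and had a median fold enrichment of 2.1. Fold enrichment is taken at the summit of a narrow H3K4me3 peak and averaged over a broad H3K27me3 peak, so it is compared only within a mark. Of the H3K4me3 peaks 92.4% reached a promoter, against 23.2% of the H3K27me3 peaks. The bases under both marks came to 0.574 Mb, which is 3.22% of the H3K4me3 bases and 0.566% of the H3K27me3 bases. The lowest −log10 q, the false discovery rate of a peak on a −log10 scale, was 7.0 for H3K4me3 and 0.302 for H3K27me3, so that the H3K27me3 list reached down to weak peaks. Many of its peaks have a listed value under the q-value threshold that the study's reporting summary names for this mark. Like fold enrichment, the listed q of a broad peak is an average over the peak. It therefore does not show that a peak failed the threshold. Kept to H3K27me3 peaks with a −log10 q of at least 2, the map had 3291 genes of all types with H3K27me3 only and 838 with both marks, where it had 6411 and 1310 with all peaks. Of the 3515 protein-coding genes with H3K27me3 only, 60.7% had a widest peak with −log10 q of at least 2, and that share is given beside lists below.

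Protein-coding genes made up 81.9% of the genes with H3K4me3 only, 85.7% of those with both marks, 54.8% of those with H3K27me3 only and 20.6% of those with neither. Long noncoding RNA genes carried either mark about equally often, 14.6% of 9404 with H3K4me3 only and 15.3% with H3K27me3 only. Pseudogenes, copies of genes that no longer code, held neither mark in 92.6% of 11578 cases and H3K27me3 only in 6.28%. The 494 segments of immunoglobulin and T cell receptor genes, which are joined only in lymphocytes, had no H3K4me3 at all, and 46 (9.31%) had H3K27me3, at 7 (15.2%) of them with a −log10 q of at least 2.

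**Figure D1:**
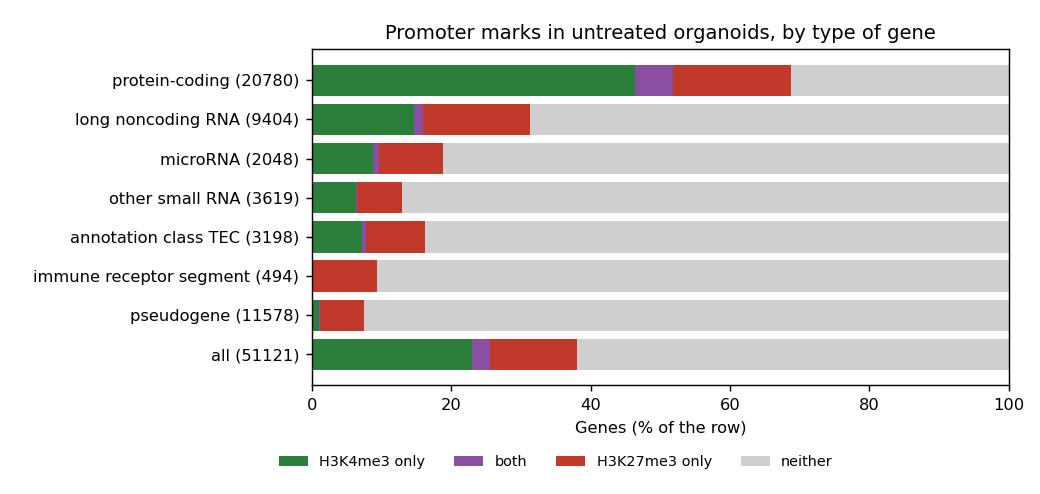
Share of genes of each annotation type (horizontal axis, % of the row, with the number of genes in brackets) with H3K4me3 only, both marks, H3K27me3 only or neither mark in the untreated organoids. Protein-coding genes carried a mark most often, with 31.3% in neither state, against 92.6% of pseudogenes. TEC is an annotation class of transcripts with weak evidence.

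Markers of the labelled cell type mostly had H3K4me3, and markers of cells that the culture should lack had no H3K4me3. Of 16 markers of colonic epithelium, 15 had H3K4me3 only. The exception was Car1, a carbonic anhydrase of mature colonocytes, which had neither mark. Epcam, an adhesion molecule of epithelia, lay under a 4472-bp peak with a fold enrichment of 39.1, and Cdh1, which encodes E-cadherin, under 4311 bp and 51.5. Cdx2, the homeobox regulator of intestinal identity, had 3777 bp and 51.9. Krt19, a keratin of simple epithelia, had 6102 bp and 30.7. Weaker peaks lay at Slc26a3, the chloride exchanger of surface colonocytes, with 1771 bp and 8.01, and at Krt20, a keratin of differentiated cells, with 504 bp and 5.61. The median H3K4me3 peak of the epithelial markers was 4105 bp wide, against 1628 bp over all protein-coding genes with H3K4me3 only.

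None of the 43 markers of immune, stromal, endothelial and neural cells had H3K4me3, where 51.8% of protein-coding genes did. Of these 43, 25 had H3K27me3 only and 18 neither. The lists differed in the strength of the H3K27me3. All 9 neural and glial markers had it, with −log10 q of at least 2 at 8 of them, among them Olig2, a regulator of oligodendrocytes (32864 bp, fold enrichment 3.84), and Sox10, a regulator of glia (12379 bp, 3.78). Of 12 stromal markers 7 had it, 6 with −log10 q of at least 2, among them Pdgfra, the growth factor receptor of fibroblasts (22935 bp, 3.78), and Twist1, a mesenchymal regulator (20196 bp, 3.42). Of 12 immune markers 5 had it, and 0 of these reached a −log10 q of 2. They included Cd3e of T cells (1.07), and Csf1r, Spi1 and Laptm5, expressed in myeloid or all blood cells (1.04, 0.425 and 0.624). The other 7 immune markers, Ptprc, Itgam, Cd68, Cd79a, Cd2, Tyrobp and Fcer1g, had neither mark, and their CpG values lay between 0.18 and 0.33. Among endothelial markers, Kdr, the VEGF receptor, and Erg, an ETS factor, had strong H3K27me3 (fold enrichments of 3.78 and 3.19) and Cdh5 and Robo4 weak (2.09 and 2.30), while Pecam1, Tie1, Tek, Vwf, Emcn and Sox17 had neither.

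Around the start, H3K4me3 formed a sharp summit and H3K27me3 a wide plateau. Of the protein-coding genes with H3K4me3 only, 88.4% were under an H3K4me3 peak at the outermost start itself, 91.9% at 250 bp downstream, 15.5% at 1000 bp upstream and 54.0% at 1000 bp downstream. The median summit lay 162 bp downstream of the nearest annotated start of its gene. Of the genes with H3K27me3 only, 77.2% were covered at the start and 79.7% at 250 bp downstream, and coverage was still 20.8% at 10000 bp upstream and 27.1% at 10000 bp downstream. Genes with both marks were covered less often by either one, with 61.4% under H3K4me3 and 58.4% under H3K27me3 at the start. At 750 bp downstream 66.8% of them were under H3K27me3 and 30.8% under H3K4me3. Further starts of a gene lie downstream of its outermost one, and the states use all of them, so the upstream and downstream sides are not compared here.

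**Figure D2:**
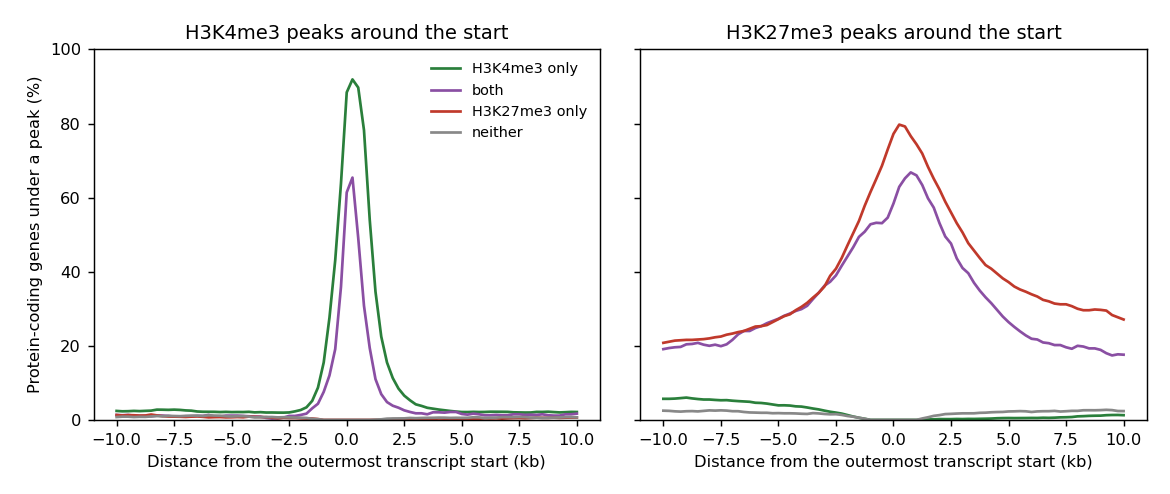
Share of protein-coding genes of each state (vertical axis, %) that lay under an H3K4me3 peak (left) or an H3K27me3 peak (right) at each distance from the outermost transcript start (horizontal axis, kb, negative upstream), in steps of 250 bp up to 10000 bp. H3K4me3 stood close to the start and H3K27me3 reached out to the edges of the window, and within the promoter of the outermost start the states without a mark are at 0 by their definition, which also bars the mark at further starts downstream.

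H3K4me3 peaks were narrower and weaker at genes that also had H3K27me3. Over protein-coding genes, the widest H3K4me3 peak of a gene had a median width of 1628 bp (quartiles 1219 and 2165) and a fold enrichment of 29.0 where H3K4me3 was alone. Where H3K27me3 was present too, it had a median width of 960 bp (654 and 1436) and a fold enrichment of 13.8. Ranked by H3K4me3 width into 4 classes of 2690 genes, 25.9% of the genes with the narrowest peaks (up to 1146 bp) had both marks. In the next classes 7.21%, 4.80% and 3.87% did. The H3K27me3 peaks of the 2 states were more alike, with medians of 5501 bp and a fold enrichment of 2.71 where H3K27me3 was alone and 4883 bp and 2.69 where both marks were present. When each list was cut to the peaks with a −log10 q over its median, the number of genes of all types with both marks went from 1310 to 210, and the median H3K4me3 width was 1688 bp with both marks and 1846 bp with H3K4me3 alone.

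**Figure D3:**
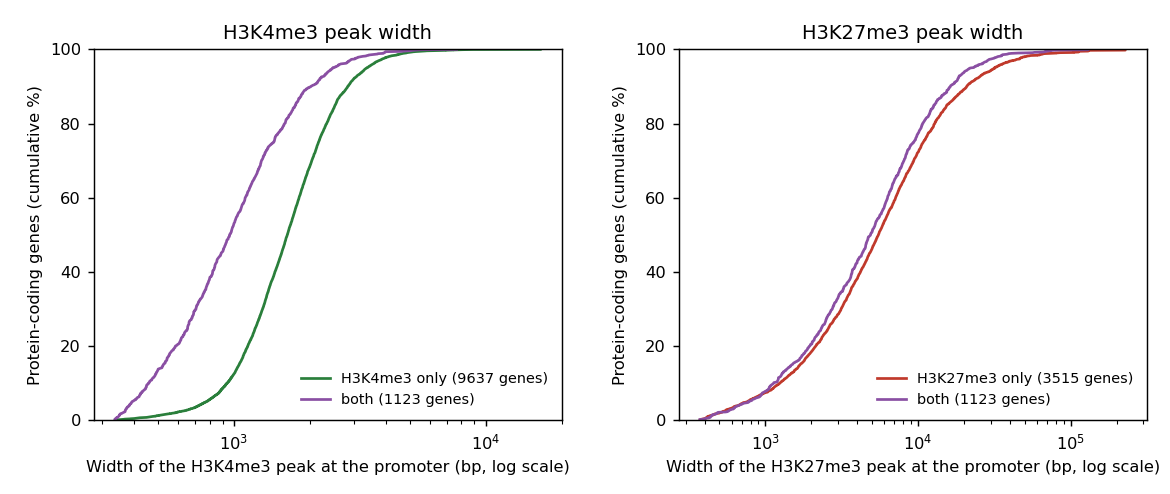
Cumulative share of protein-coding genes (vertical axis, %) by the width of their widest H3K4me3 peak (left) or H3K27me3 peak (right) at a promoter (horizontal axis, bp, log scale), for genes with 1 mark and with both. The H3K4me3 curve of genes with both marks lies to the left, with a median of 960 bp against 1628 bp, and the H3K27me3 curves lie close together, with medians of 4883 and 5501 bp.

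The 8 genes with the widest H3K4me3 peaks and no H3K27me3 included Tnrc18, which encodes a chromatin reader (11159 bp), and Hoxa13, a homeobox regulator of the hindgut (10933 bp). Irf2bp2, a corepressor, had 8895 bp, Gata6, an endodermal zinc finger factor, 8649 bp, and Zbtb7a, a transcriptional repressor, 8364 bp. Tmem171, a membrane protein, with 8241 bp, and Bhlhe40, a repressor of the circadian pathway, with 8117 bp, were also among the 8 widest. Only 7.88% of protein-coding genes with H3K4me3 only had a peak of at least 3000 bp.

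Housekeeping genes had H3K4me3 of ordinary width. Of 240 genes for ribosomal proteins, proteasome subunits, mitochondrial ribosomal proteins, complex I and eIF3, 225 (93.8%) had H3K4me3 only, and their median peak was 1644 bp wide. The strongest in each list included Rps19 and Rpl17 of the ribosome, the proteasome subunit Psmd1 and the complex I subunit Ndufv2. The 3 genes with H3K27me3 only were members with a tissue-restricted or inducible role, namely Rpl3l, the ribosomal protein of striated muscle, Psmb11, the proteasome subunit of the thymus, and Psmb8, the interferon-induced subunit. Their peaks were weak, with −log10 q of 1.25, 1.28 and 0.622. Mrpl23 and Ndufa8 had both marks, each with H3K4me3 and H3K27me3 peaks that touched the same promoter without sharing a base. Their H3K27me3 had a −log10 q of 1.92 and 1.18, and neither gene had both marks when a −log10 q of at least 2 was required. The 10 with neither mark were the testis variants Rpl10l, Rpl39l and Psma8, and Rps9, Psma7, Psmc5, Mrpl15, Mrpl43, Ndufa3 and Ndufa6, of which all but Psma8 start in a stretch of 52.3 to 9237 kb without a peak in any of the 4 lists, described further on.

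Of the listed developmental regulators, most had H3K27me3 only, often wide and strong, with Forkhead and Gata genes as exceptions. Of 194 genes of the Hox, Pax, Sox, T-box, Forkhead, Gata and bHLH families and of the Nkx, Lhx, Dlx, Irx and sine oculis homeobox families, 128 (66.0%) had H3K27me3 only, 20 (10.3%) both marks, 32 (16.5%) H3K4me3 only and 14 (7.22%) neither. Their widest H3K27me3 peak had a median width of 23921 bp, and 95.3% of the 128 had a −log10 q of at least 2. The Nkx, Lhx, Dlx, Irx and sine oculis homeobox genes were the most uniform, with 36 of 40 under H3K27me3 only. Among these, Dlx1, a regulator of forebrain interneurons, had a fold enrichment of 4.51 and Lhx3, a pituitary and motor neuron factor, 4.22. Six5 alone of the 40 had H3K4me3 only (1906 bp, 27.2). The 41 Forkhead genes were spread over the 4 states, with 14 (34.1%) under H3K27me3 only, 14 (34.1%) under H3K4me3 only, 8 (19.5%) with both marks and 5 (12.2%) with neither. Of 5 Gata factors 2 had H3K27me3 only, 2 both marks and 1 H3K4me3 only. Of 9 Pax genes 8 had H3K27me3 only, and Pax8 had both marks at different promoters. Of 26 neuronal and myogenic bHLH factors 20 had H3K27me3 only, with Tal1, a blood and endothelial regulator, at a fold enrichment of 4.49.

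The 4 Hox clusters, which set position along the body axis, differed. All 9 Hoxc genes lay in 1 H3K27me3 peak of 228103 bp, the widest on the autosomes (chr15:102898716-103126818, fold enrichment 3.95). The peak over the Hoxd cluster and Evx2 was 130377 bp wide (chr2:74643446-74773822, 4.06) and took in Hoxd1 to Hoxd12 with H3K27me3 only. At its end Hoxd13 and the homeobox gene Evx2 had both marks, with H3K4me3 peaks of 3715 and 3987 bp, and 7.41% of the domain was under H3K4me3. In the Hoxb cluster, Hoxb1 to Hoxb8 shared a peak of 112833 bp (3.66), while Hoxb9, with an H3K4me3 peak of 1517 bp, and Hoxb13, with 8029 bp, had H3K4me3 only. The Hoxa genes had H3K4me3 only with the exception of Hoxa2, which had neither mark. Their H3K4me3 peaks were widest at Hoxa13 (10933 bp), at Hoxa9 and Hoxa10, which shared 1 peak of 7406 bp, and at Hoxa11 (5508 bp). Over all 39 Hox genes, 25 had H3K27me3 only, 12 H3K4me3 only, 1 both and 1 neither.

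Wide H3K27me3 domains outside the Hox clusters stood at regulators and at other genes. Uncx, a homeobox gene of the somites, was the only protein-coding gene with a promoter in a peak of 114072 bp, Nkx2-3, a homeobox gene of gut mesoderm, in one of 96139 bp, and Tbx4, a limb regulator, in one of 85382 bp. A peak of 104433 bp took in promoters of Fam234b, Gsg1 and Hebp1, one of 81569 bp those of Itpripl2 and Syt17, one of 80056 bp those of Adgrb2 and Spocd1, and one of 77243 bp that of Fam20c, a kinase of secreted proteins. A peak of 120537 bp on chromosome 13 (chr13:52697916-52818452) reached no protein-coding promoter. Peaks of at least 50000 bp numbered 53, held 3.76% of the H3K27me3 bases and reached a promoter in 90.6% of cases. Peaks under 1000 bp numbered 8399, reached a promoter in 10.1%, and had a median −log10 q of 0.580 against 5.10 in the widest class.

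Neighbouring genes tended to share a state. Of the nearest protein-coding neighbours with starts more than 2000 bp away, 29.9% of those next to a gene with H3K27me3 only were in that state too, against 16.9% of all protein-coding genes. For H3K4me3 only the shares were 57.2% and 46.4%, for neither 61.6% and 31.3%, and for both marks 7.92% and 5.40%. Runs of at least 5 successive protein-coding genes with H3K27me3 only numbered 26 and held 167 genes. The longest were 2 runs of 12 genes in the type II keratin cluster of chromosome 15, from Krt87 to Gm5478 and from Krt6a to Krt78. Others covered the alpha interferons (8 genes with Ifna1), the cardiac myosins Myh6 and Myh7 with Il25 (7 genes), the alpha globins (5 genes with Hba-a1), and Wnt6 and Wnt10a with Cdk5r2, Fev and Cryba2 (5 genes). Neighbours can lie in 1 peak, so that genes of a run are not separate measurements, and the 7721 genes with H3K27me3 rest on 7053 distinct peaks, and the 13082 with H3K4me3 on 10377.

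Wnt ligands mostly had H3K27me3 only, while their receptors more often had H3K4me3. Of 19 Wnt ligands, the secreted factors that keep crypt cells dividing, 18 had H3K27me3 only and Wnt8a neither, and all 18 had a −log10 q of at least 2. Wnt1 and Wnt10b lay in 1 peak of 33462 bp (fold enrichment 4.10), Wnt3, the ligand that epithelium itself makes in the small intestine, in one of 13768 bp (3.54) and Wnt3a in one of 44036 bp (3.22). Of the 10 Frizzled receptors for these ligands, 5 had H3K4me3 only, 3 both and 2, Fzd2 and Fzd10, H3K27me3 only. Fzd5, a receptor used in intestinal crypts, had an H3K4me3 peak of 3423 bp (38.1). Fzd3, Fzd7, which crypt stem cells use, and Fzd9 had both marks, with 534, 2167 and 610 bp of H3K4me3. Of 20 fibroblast growth factors 11 had H3K27me3 only, 3 both, 5 neither and 1, Fgf1, H3K4me3 only. Among the 10 genes named for bone morphogenetic proteins, Bmp2 alone had H3K4me3 only (3406 bp, 39.2), while Bmp4, Bmp6 and Bmp7 had H3K27me3 only, Bmp1, Bmp3 and Bmp8a both marks, and Bmp5, Bmp8b and Bmp10 neither.

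Of 18 transcription factors of colonic epithelium, 16 had H3K4me3 only, and their median H3K4me3 peak was 4472 bp wide. They included Klf5 (7228 bp, 54.1), a factor of crypt proliferation, Foxa1 (7217 bp, 49.6), a pioneer factor of endoderm, and Hnf4a (3815 bp, 29.6), a nuclear receptor of enterocytes. Prdm1, a repressor active in the fetal gut, had both marks, and Isx, a homeobox gene of the small intestine, neither. Of 13 regulators of the foregut and small intestine, 4 had H3K4me3 only, 1 both marks and 8 H3K27me3 only, all 8 with a −log10 q of at least 2. Sox2 of the stomach lay under 36392 bp, Barx1 of the stomach mesenchyme under 29860 bp, Nkx2-1 of lung and thyroid under 25718 bp, and Onecut2, an endodermal cut homeobox factor, under 25073 bp. Gata4, the zinc finger factor that specifies the upper small intestine, had both marks, with 826 bp of H3K4me3 (7.02) inside 37663 bp of H3K27me3 (4.66). This H3K4me3 stood at inner starts of the gene, and Gata4 did not have both marks when only the outermost start was used or when each list was cut to its peaks over the median −log10 q. Among the 4 with H3K4me3 only were Pdx1 and Foxa2, which are also used in the pancreas, and Gata6.

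Stem cell genes were divided over all 4 states. Of 21 crypt stem cell and Wnt target genes, 13 had H3K4me3 only, among them Lrig1, a receptor that limits growth signalling (4617 bp, 56.3), Ephb2, a receptor of the crypt base (3190 bp, 51.8), Sox9, a progenitor factor (4752 bp, 41.1), Axin2, a Wnt feedback gene (3448 bp, 33.6), and Myc (4849 bp, 25.4). Lgr5, the R-spondin receptor that marks crypt base stem cells, had H3K27me3 only (6160 bp, 2.93, −log10 q 4.56), as did the secreted Smoc2 (9732 bp, 2.61), the Wnt deacylase Notum (7086 bp, 3.39) and the receptor Tnfrsf19 (5778 bp, 2.67). Ascl2, the stem cell factor downstream of Wnt, had both marks (1665 bp of H3K4me3 and 4282 bp of H3K27me3), as did Nkd1, a Wnt inhibitor (374 and 7101 bp), and Bmi1 (2193 and 3477 bp). Olfm4, a secreted glycoprotein of stem cells, had neither.

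Enteroendocrine (61.9%) and tuft cell genes (56.2%) often had H3K27me3 only, against 16.9% of protein-coding genes. Goblet (27.8%) and Paneth cell genes (22.2%) lay nearer to that share. Of 21 enteroendocrine genes, 13 had H3K27me3 only, 10 of them with a −log10 q of at least 2, 2 both and 0 H3K4me3 only. The fate factors Neurog3 (10673 bp, 2.98) and Neurod1 (6746 bp, 3.14), the granins Chga (2224 bp, 2.52) and Chgb (3477 bp, 2.65), and the hormones Pyy (42425 bp, 3.44) and Cck (12614 bp, 3.50) were in the first group. Insm1 and Isl1, factors of endocrine differentiation, had both marks, each with an H3K4me3 fold enrichment of 5.81. Of 16 tuft cell genes 9 had H3K27me3 only, 7 of them with a −log10 q of at least 2, with the master factor Pou2f3 under 26391 bp (3.02) and Dclk1 under 3531 bp (3.49), and the cytokine receptor subunit Il17rb alone had H3K4me3 (2285 bp, 16.1). Of 18 goblet cell genes 7 had H3K4me3 only, among them Foxa3 (3101 bp, 59.3) and the membrane mucin Muc13 (5009 bp, 30.4). Another 5 had H3K27me3 only, namely Gfi1, a secretory lineage repressor (24120 bp, 4.01, −log10 q 9.08), Bcas1 (2.95), the mucus lectin Zg16 (1.55), the gel-forming mucin Muc2 (20444 bp, 2.25, 1.38) and the goblet factor Spdef (0.405), where the last 3 fall under a −log10 q of 2. Atoh1, the switch to the secretory fate, had both marks, with 1552 bp of H3K4me3 (10.8) and 8116 bp of H3K27me3 (3.58). Of 9 genes of Paneth cells, which the colon lacks, 0 had H3K4me3, 2 (Lyz1 and Itln1) had H3K27me3, neither with a −log10 q of at least 2, and 7 had neither mark.

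Absorptive genes had shares near those of all protein-coding genes. Of 22, 10 (45.5%, against 46.4%) had H3K4me3 only, 3 (13.6%, against 16.9%) H3K27me3 only and 9 (40.9%, against 31.3%) neither. Car2, a carbonic anhydrase, had 7674 bp of H3K4me3 (39.8) and the adhesion gene Ceacam1 5043 bp (32.3). The water channel Aqp8 (5.96) and the sodium channel subunit Scnn1a (5.17) had weak H3K4me3. The partner subunits Scnn1b and Scnn1g had H3K27me3 only (fold enrichments of 2.53 and 2.46), as did the membrane carbonic anhydrase Car4 (3.46, −log10 q 7.54). The 9 with neither mark included the fatty acid carriers Fabp1 and Fabp2, the guanylin genes Guca2a and Guca2b and the phosphatase Alpi, with CpG values of 0.11 to 0.29.

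Most Polycomb and Trithorax genes, which include the writers of both marks, had H3K4me3 themselves, and 1 had neither mark. Of 42 autosomal Polycomb and Trithorax genes, 34 had H3K4me3 only, among them Ezh2 (2278 bp, 56.4), Suz12 (2144 bp, 44.1) and Eed (2779 bp, 25.5), the core of Polycomb repressive complex 2, and the H3K4 methyltransferases Kmt2b (3354 bp, 56.1) and Setd1b (7852 bp, 50.5). Both marks stood at 7 (16.7%, against 5.40% of protein-coding genes). These were the chromodomain readers Cbx2, Cbx6, Cbx7 and Cbx8, the Polycomb repressive complex 1 subunits Bmi1 and Phc2, and the accessory subunit Epop. Cbx8 lay in 23322 bp of H3K27me3 (4.01, −log10 q 10.1), while Cbx7 had a weak peak (2.0, 0.779) that shared no base with its H3K4me3. With H3K27me3 peaks of −log10 q of at least 2 alone, 4 of the 7 remained with both marks. Of the 7 cyclin-dependent kinase inhibitors on autosomes, 5 had H3K4me3 only, Cdkn1c, an imprinted gene, had H3K27me3 only (2021 bp, 3.08), and Cdkn2a, which encodes p16 and p19, had both, with 1332 bp of H3K4me3 (27.3) and 29407 bp of H3K27me3 (3.86).

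Olfactory and vomeronasal receptors, keratin-associated proteins and defensins, families in tandem arrays, mostly had no mark. Of 1528 olfactory and vomeronasal receptor, keratin-associated protein and defensin genes, 1455 (95.2%) had neither mark and 72 (4.71%) H3K27me3 only, where 31.3% and 16.9% of protein-coding genes did. Only 11.1% of these 72 had a −log10 q of at least 2, and the median CpG value of the families was 0.11. Vmn1r4 was the single member with H3K4me3 (1798 bp, 36.5), and its CpG value of 0.76 stood far from the family's. Keratin-associated proteins had H3K27me3 most often, 16 of 53. Of 56 clustered protocadherins, adhesion genes of neurons, 46 had neither mark and 7 H3K27me3 only, 1 of these with a −log10 q of at least 2. Zinc finger genes named Zfp, also in arrays, had H3K4me3 only in 287 of 383 cases, with a narrow median H3K4me3 peak of 1202 bp.

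**Figure D4:**
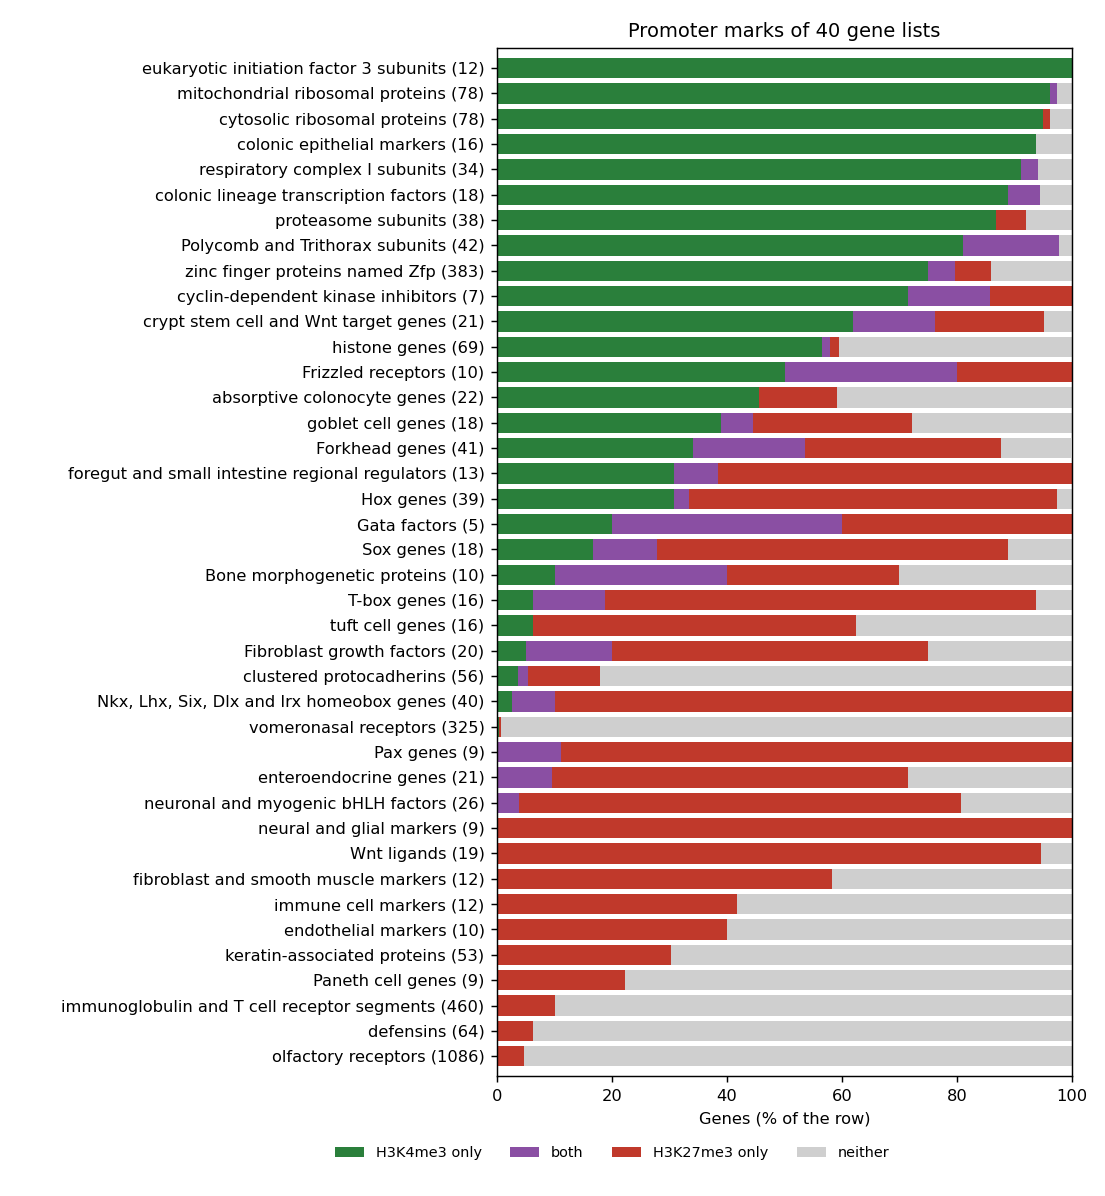
Share of each of 40 gene lists (horizontal axis, % of the row, with the number of autosomal members in brackets) with H3K4me3 only, both marks, H3K27me3 only or neither mark, ordered by the share with H3K4me3 only. The top 7 lists, of housekeeping genes, epithelial markers and colonic regulators, have at least 86.8% in H3K4me3 only, neural markers, Wnt ligands and homeobox families are mostly H3K27me3, and olfactory receptors at the bottom mostly have neither mark.

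Genes with both marks were of 3 kinds. Of the 1123 protein-coding ones, 775 (69.0%) had peaks of the 2 marks that shared bases in a promoter. In 130 (11.6%) both peaks touched the same promoter without sharing a base, and in 218 (19.4%) each mark stood at a different start of the gene. The first kind had narrower H3K4me3 (848 bp, fold enrichment 11.4) and wider H3K27me3 (5523 bp) than the kind with separate starts (1333 bp, 23.1, and 3608 bp), and a higher CpG value, 0.67 against 0.51. Genes with separate starts had a median of 7 starts, against 4 in the other kinds. Lman1, a cargo receptor of the secretory pathway, had its H3K4me3 peak of 1155 bp and a 70570-bp H3K27me3 domain at different starts, and so had Tcf20 (1686 and 68214 bp) and Rnf220 (1233 and 68013 bp). Besides Hoxd13 and Evx2, the widest H3K27me3 at genes with overlapping peaks was at Vav2, a GTPase exchange factor (84128 bp), Rtn4r, the Nogo receptor (75602 bp), and Ropn1l (74342 bp), each with under 1000 bp of H3K4me3.

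Of the 8 genes with both marks that had the widest H3K4me3, 5 had no peaks of the 2 marks that shared bases in a promoter. H2-DMa, a peptide loader of MHC class II (7662 bp), Gnas, an imprinted G protein locus (5014 bp), Nfib (4769 bp) and Zmiz1 (4631 bp) had the marks at different promoters, and Nr2f2 (5105 bp) had them in 1 promoter without shared bases. The widest H3K27me3 peaks of H2-DMa, Gnas and Nfib had a −log10 q under 2 (1.98, 1.73 and 0.941), and those of Zmiz1 and Nr2f2 had 10.9 and 5.15. At Ptch1, whose upstream sequence is printed above, a 5513-bp H3K4me3 peak (48.1) and a 10348-bp H3K27me3 peak (3.67) lay side by side without touching, and a smaller H3K4me3 peak shared bases with this H3K27me3 peak in the promoter of the outermost of its 10 starts. Lmo7 (5271 bp) and Fgfr2, a growth factor receptor (3990 bp), also had peaks of the marks that shared bases in a promoter, while their widest peaks of the 2 marks lay apart. At Fgfr2 these widest peaks lay at chr7:133120878-133124867 for H3K4me3 and chr7:130263443-130267523 for H3K27me3. A peak counted for every gene with a promoter in its reach. Whether the wide peaks of these 8 genes belong to neighbouring genes was not tested. Some genes lay close to the edges of the rules. Dusp8, Fam171a1 and Stx11, with both marks, had the weakest H3K27me3 peaks, with −log10 q of 0.360, 0.384 and 0.387. Heatr1 and Hoga1, counted as H3K4me3 only, had an H3K27me3 peak 11 bp outside a promoter, and P4ha1 32 bp outside.

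Unmarked genes had the lowest CpG content, and genes with H3K27me3 only covered a wide range. Median CpG values of protein-coding genes were 0.63 with H3K4me3 only, 0.63 with both marks, 0.42 with H3K27me3 only and 0.17 with neither. GC content was highest with both marks, at 57.1%, against 53.6% with H3K4me3 only, 53.4% with H3K27me3 only and 43.9% with neither. A promoter was called CpG-rich at a CpG value of at least 0.6 and a GC content of at least 50%, and CpG-poor under 0.3. Of the 6398 CpG-rich promoters 74.8% had H3K4me3 only, 13.0% H3K27me3 only, 9.77% both and 2.44% neither. Of the 7140 CpG-poor ones 10.2% had H3K4me3 only, 16.5% H3K27me3 only, 1.62% both and 71.7% neither.

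H3K27me3 at CpG-rich and at CpG-poor promoters was of different strength. The 831 CpG-rich genes with H3K27me3 only had a median width of 8793 bp and a fold enrichment of 3.38, and 94.2% had a −log10 q of at least 2. The 1175 CpG-poor genes had a median of 3880 bp and 2.23, and 26.0% had a −log10 q of at least 2. The first class holds genes such as Twist1 (CpG value 0.81) and Foxd1 (0.89), and the second genes such as the keratin-associated Krtap1-3 (0.14). With H3K27me3 peaks of −log10 q of at least 2 alone, the genes of all types with H3K27me3 only went from 6411 to 3291 and their median CpG value from 0.33 to 0.51. A part of GC content in the recovery of reads was not tested.

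**Figure D5:**
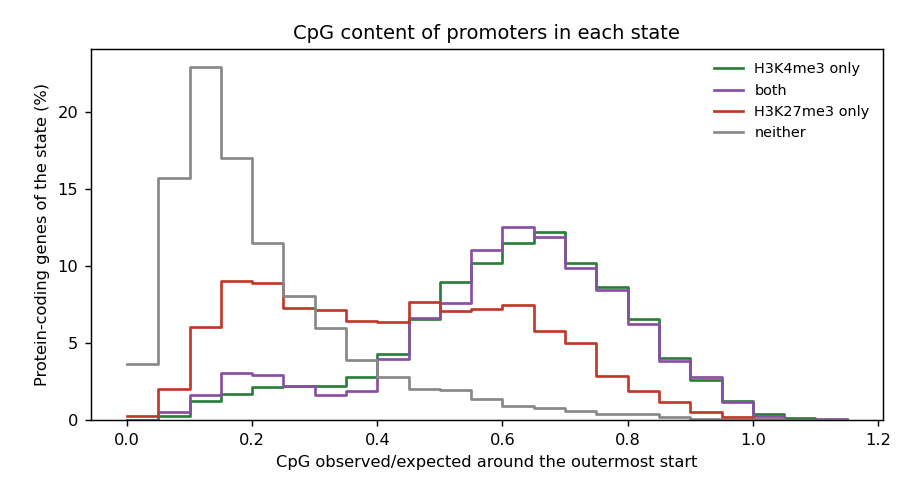
Share of protein-coding genes of each state (vertical axis, %) in bins of 0.05 of the CpG observed/expected value within 1000 bp of the outermost start (horizontal axis). Genes with H3K4me3 only and with both marks share a mode near 0.6, genes with neither lie mostly below 0.3, and genes with H3K27me3 only spread over the whole range with a median of 0.42.

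Some stretches of the autosomes had no peak in any list. On chromosomes 1, 7 and 8 the first peak of any of the 4 lists lay at 9.24, 4.60 and 3.99 Mb, and 15, 38 and 25 protein-coding genes lie before it. They include Tcea1, Lypla1 and Mrpl15 on chromosome 1, Rps9, Prpf31 and Ndufa3 on chromosome 7, and the endothelial marker Sox17. On chromosomes 14 and 9 the first peak lay at 4.33 and 3.34 Mb, after 26 and 9 protein-coding genes, most of which have provisional names that begin with Gm. Of the 156 CpG-rich protein-coding genes with neither mark, 145 had no peak at a promoter in any of the 4 lists of the study. Their outermost starts lay in 87 peak-free stretches with a median length, over genes, of 115 kb (5.11 to 9237 kb), and 60 of the 145 shared their stretch with at least 2 more CpG-rich starts. Over the 5947 protein-coding genes with neither mark whose outermost start lay under no peak of any list, CpG-poor ones included, the median was 214 kb (1.16 to 12127 kb), and 129 of the 5947 lay in a stretch with at least 3 CpG-rich starts. Stretches inside chromosomes also held unmarked housekeeping genes. Psma7 lay in one of 67.9 kb, Psmc5 in one of 80.0 kb, Mrpl43 in one of 105 kb, each with 3 CpG-rich starts, and Ndufa6 in one of 140 kb. Whether the marks or only the peaks were missing there was not tested.

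Most genes had the same state in the wt+TNFα organoids. Of the protein-coding genes with H3K4me3 only in wt, 96.0% had that state with TNFα, as did 91.7% of those with H3K27me3 only, 79.9% of those with both and 82.9% of those with neither. Of the 1123 wt genes with both marks, 132 had H3K4me3 only with TNFα, 94 H3K27me3 only and 0 neither. Both marks were present with TNFα at 91.7% of the 218 genes with the marks at different starts and at 76.8% of the 775 with overlapping peaks. Of the genes with neither mark in wt, 987 (15.2%) had H3K27me3 only with TNFα. These values rest on 1 library per mark and condition and on lists of unequal reach, since the autosomal H3K27me3 list covered 228 Mb with TNFα and 101 Mb in wt, and the H3K4me3 lists 19.5 and 17.8 Mb. The name of the wt H3K27me3 list mentions a spike-in and that of the wt+TNFα H3K27me3 list does not, so both may have been processed differently. The part of this difference in the changes of state was not tested.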

How the data were processed

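The deposited autosomal peak lists of the wt H3K4me3 (narrow) and H3K27me3 (broad) organoid libraries were used, with the wt+TNFα lists for the comparison of conditions and the stretches without a peak in any list. Reads, inputs and RNA were not analysed here. The authors used fastp to trim reads and BWA (version 2.2) to map them to GRCm38/mm10, took out duplicates with SAMtools (version 1.11), filtered blacklisted regions and called peaks against input with MACS2 (version 2.1.0 per the submitters' processing notes). The deposited lists give fold enrichment over local background as a ratio, p-values and q-values as −log10, and a score, which was not used. A spike-in, which the methods do not describe, appears in the name of each list but the wt+TNFα H3K27me3 one. Read depth cannot be taken from the lists, and the read totals in the reporting summary differ from the nominal depth of the labels.

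Genes came from GENCODE (55450 genes, 141767 transcripts). The width, fold enrichment and −log10 q of a gene are those of its widest peak at a promoter. The assignment of states was tested on simulated peaks. With 1 library per mark, no p-value was computed. Named genes were the 8 protein-coding genes with the widest peaks of each state, for each gene list those with the highest fold enrichments in the commonest state and the members of the rarest state, and all cell type markers. The 3 genes with both marks and the lowest H3K27me3 −log10 q were named too. So were the 3 with H3K4me3 only whose promoters lay nearest to an H3K27me3 peak. Further members of the gut, Polycomb, Hox, Wnt and Frizzled lists, genes of runs, of wide domains and of gaps were named after their values were seen. The 40 gene lists were written from general knowledge, and members and lists were chosen with earlier results of these data known. Listed genes on chromosome X were left out, and some genes under these rules are not reported here. Python 3.11.15, pandas 2.3.3 and pysam 0.24.0 were used. Promoters of 500 or 2000 bp, the outermost start alone, only protein-coding genes, an overlap of 200 bp, a 500-bp window for CpG and 2 filters on −log10 q were tried as alternatives.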

Additional observations from a re-analysis of the deposited data

Results flagged for a closer look

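The autosomal map left out the sex chromosomes, and the wt lists held peaks there. The H3K4me3 list had 316 peaks on chromosome X and 3 on chromosome Y, and the H3K27me3 list had 247 on chromosome X. They are signals outside the comparisons above and were not assigned to promoters.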

How the results depend on the processing

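Of 103 recomputed values of the map, 93 stayed within 1.5 times the reported value and 10 did not. When each list was cut to the peaks with a −log10 q over its median, genes with H3K4me3 only numbered 7465, genes with both marks 210 and those whose peaks overlap inside a promoter 49 (from 919), and the median H3K4me3 width with both marks was 1688 bp. With H3K27me3 peaks of −log10 q of at least 2, H3K27me3 only numbered 3291 genes and both 838, and genes with H3K27me3 only had a median width of 8969 bp and a CpG value of 0.51. With protein-coding genes alone, H3K27me3 only numbered 3515 and neither 6505, by construction. In the gene lists, 36 of 200 recomputed counts of genes with both marks moved by more than 1.5 times. The 200 include lists without such a gene, whose counts can move only by gaining a gene. A choice made after seeing the data left out the 233 genes before the first peak on chromosomes 1, 7 and 8. Another such choice left out the 416 genes before it on all autosomes. They changed the number with neither mark from 31628 to 31395 and 31212. All genes left out had neither mark, so the counts of the other states were fixed beforehand, and these are among the 93 values. No paired analysis was possible because each mark had 1 library. Depth could not be read from the lists, and its part in the weak H3K27me3 peaks was not tested.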
